A study of Homo sapiens with 4 samples.

Results

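Messenger RNA levels of 10 genes of the TGF-beta and activin signalling system, 4 ligands and 6 receptors or coreceptors, were examined in HCT116 cells with and without knockdown of RALY, a member of the hnRNP family of proteins that bind RNA. The genes were taken as a named list, TGFB1, TGFB2, TGFB3, INHBA, TGFBR1, ACVR1, ACVR1B, TGFBR2, ACVR2A and TGFBR3, and all 10 were found by symbol among the 58884 genes of the deposited count tables. HCT116 is a human colorectal carcinoma line that lacks DNA mismatch repair, and its TGFBR2 gene is known to carry a frameshift. All 4 libraries are entered as HCT-116 under cell line, but the source names of replicate 2 in both groups read HCT-117, a conflict that is not settled here. There were 4 libraries of total RNA, 2 labelled as wild type (the controls) and 2 as RALY knockdown. Per the labels' protocols, cells took up lentivirus for 72 h that expressed a hairpin RNA directed at RALY or a nonsilencing one. Another label names the controls untreated, so it is not settled here whether they carried the nonsilencing hairpin. The labels do not tell how many hairpins were used, nor whether a group's 2 libraries stem from 2 cultures. The p-values therefore measure only how these libraries spread, and that spread may be technical.

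Ligands of this family are secreted dimers. A dimer brings together type II and type I receptor serine/threonine kinases, the type II receptor phosphorylates the type I receptor, and the type I receptor phosphorylates SMAD transcription factors, SMAD2 and SMAD3 for TGF-beta and activin and SMAD1, SMAD5 and SMAD9 for bone morphogenetic proteins (BMPs). In colonic epithelium the TGF-beta branch restrains growth, and colorectal cancers with defective mismatch repair often lose it through frameshifts in TGFBR2, and lose activin signalling through frameshifts in ACVR2A.

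RALY mRNA was lower in both knockdown libraries. Its counts were 1903 and 2132 without and 634 and 522 with the knockdown, a log2 fold change of -1.84 (SE 0.127; adjusted p = 6.59e-06 by edgeR's quasi-likelihood test). Library totals lay between 13360007 and 16847520 counts. Of the colon epithelial markers examined, EPCAM had 1684 to 1948 counts and KRT8 2723 to 3078 counts in each library, whereas VIL1 had 11 to 14 and CDX1 at most 2. Summed levels of 9 leukocyte markers were 35.1 to 38.0 CPM (counts scaled to 1e6 per library), those of 6 endothelial markers 8.74 to 10.6 CPM. Summed levels of 10 fibroblast markers were 128 and 148 CPM in the controls and 103 and 133 CPM in the knockdown, most of it COL1A1, while PDGFRB had 200 and 264 counts in control libraries against 342 and 304 after knockdown (0.46, edgeR adjusted p = 0.0797). The other 8 fibroblast markers, DCN, LUM and PDGFRA among them, had at most 13 counts in any library. Called among the markers were the epithelial genes CDX2 and CLDN7, both lower (log2 fold changes -0.47 and -0.35), and the leukocyte gene ITGAM, higher (1.24). These were 2 of 11 tested epithelial markers, beside 13.1% of all genes tested called lower. ITGAM was 1 of 5 tested leukocyte markers, beside 12.5% of all genes called higher. With 1 library left out, CDX2 ranged from -0.52 to -0.44, CLDN7 from -0.44 to -0.31 and ITGAM from 1.01 to 1.42. The part of these genes in the results was not tested. In bulk RNA, fewer cells of a type and less RNA per cell cannot be told apart.

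After RALY knockdown, 5 of the 10 genes were higher and none was lower. The 5 were the coreceptor gene TGFBR3, the type II receptor gene TGFBR2, the type I receptor genes TGFBR1 and ACVR1B, and the ligand gene TGFB2. In all, 9 members had enough counts to be tested, and INHBA did not. Over all 19686 genes tested, 12.5% were called higher and 13.1% lower by the same rule, edgeR's quasi-likelihood test with Benjamini-Hochberg adjusted p under 0.05 over all genes. At an unadjusted p under 0.05, 7 of the 9 tested members were higher and 0 lower, beside 19.3% and 19.0% of all genes. DESeq2 called 2 higher, TGFBR3 and TGFBR2, and 0 lower, beside 8.79% and 11.4% of the genes it gave an adjusted p. The median log2 fold change was 0.35 over the 9 members and 0.01 over all genes tested, with quartiles of -0.31 and 0.32 over all genes. In 8 of the 9, both knockdown libraries lay above both controls, a pattern found in 32.3% of all genes tested. TGFB3 showed the opposite order, as did 31.3% of all genes tested. The plot of fold changes shows the sizes with their intervals.

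**Figure D1:**
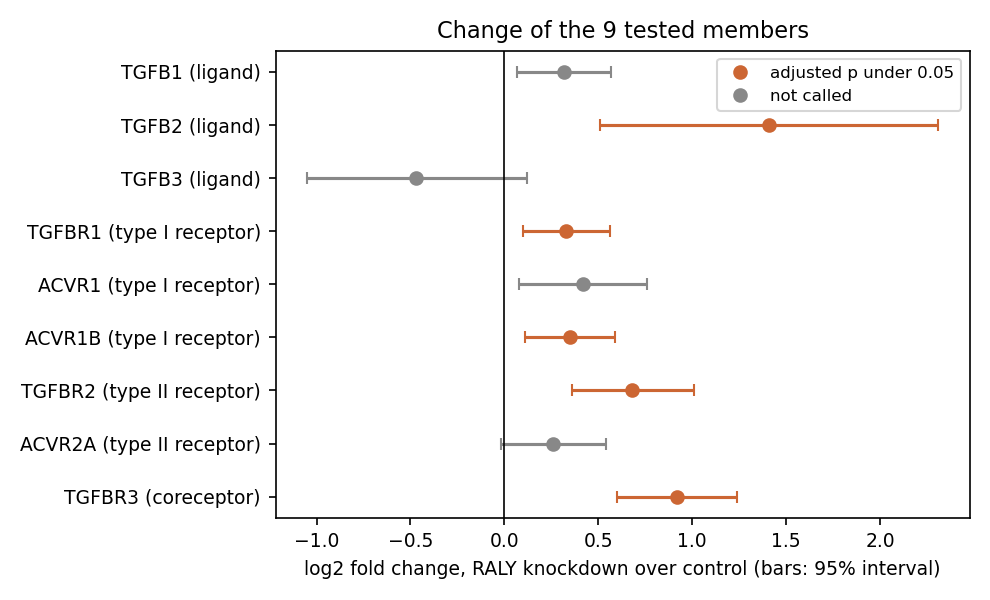
Log2 fold change of RALY knockdown over control (x axis) for the 9 tested members, named with their role (y axis). Points are edgeR estimates from 2 libraries per group, bars are 95% intervals, and orange marks an adjusted p under 0.05; TGFBR3 (0.92) and TGFB2 (1.41) lie farthest to the right and TGFB3 (-0.47) is the only one below 0.

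With 1 library left out, fewer members and fewer of all genes were called without a control than without a knockdown library. Without control replicate 1, 0 of 10 tested members were called higher and 0 lower, beside 1.62% and 3.17% of all genes. Without control replicate 2, 1 of 10, TGFBR3, was higher and 0 lower, beside 2.33% and 2.49%. Without knockdown replicate 1, 6 of 10 were higher, INHBA among them, and 0 lower, beside 14.3% and 16.4%. Without knockdown replicate 2, 4 of 9 were higher and 0 lower, beside 12.8% and 13.0%. The 9 members tested with all libraries kept their direction in each of these fits. INHBA passed the filter only where knockdown replicate 2, its highest library, was kept. Fits without 1 control take their spread within groups from the knockdown pair, whose chi-square per degree of freedom was 10.3 against 5.53 for the control pair. The part of this difference in the lost calls was not tested.

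Levels of different genes were compared as CPM per kilobase (kb) of the exon length in the deposited tables. TGFB1 had the highest level of the 10 in the controls, 28.3 ± 1.26 CPM per kb (SD, n = 2), followed by the type I receptor genes ACVR1B at 14.8 ± 0.741, TGFBR1 at 14.6 ± 0.0882 and ACVR1 at 12.5 ± 1.55. The type II receptor genes ACVR2A and TGFBR2 came next, with 9.20 ± 1.23 and 5.48 ± 0.706 CPM per kb, and then TGFBR3 with 4.32 ± 0.726. The remaining ligand genes were lowest, TGFB3 at 1.26 and 1.53 in the control libraries, TGFB2 at 0.115 ± 0.0142 and INHBA at 0.0150 ± 0.00834 CPM per kb. Of the 9 neighbouring pairs in this order only ACVR1B and TGFBR1 overlapped between control libraries. The order of the means was the same in the knockdown, where the pairs ACVR1B and TGFBR1, TGFBR1 and ACVR1, and TGFBR2 and TGFBR3 overlapped. With canonical transcript lengths in place of exon lengths, TGFBR3 stood above TGFBR2 in both groups (5.85 against 5.69 CPM per kb in the controls), and ACVR1 above TGFBR1 in the knockdown (20.1 against 19.4).

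**Figure D2:**
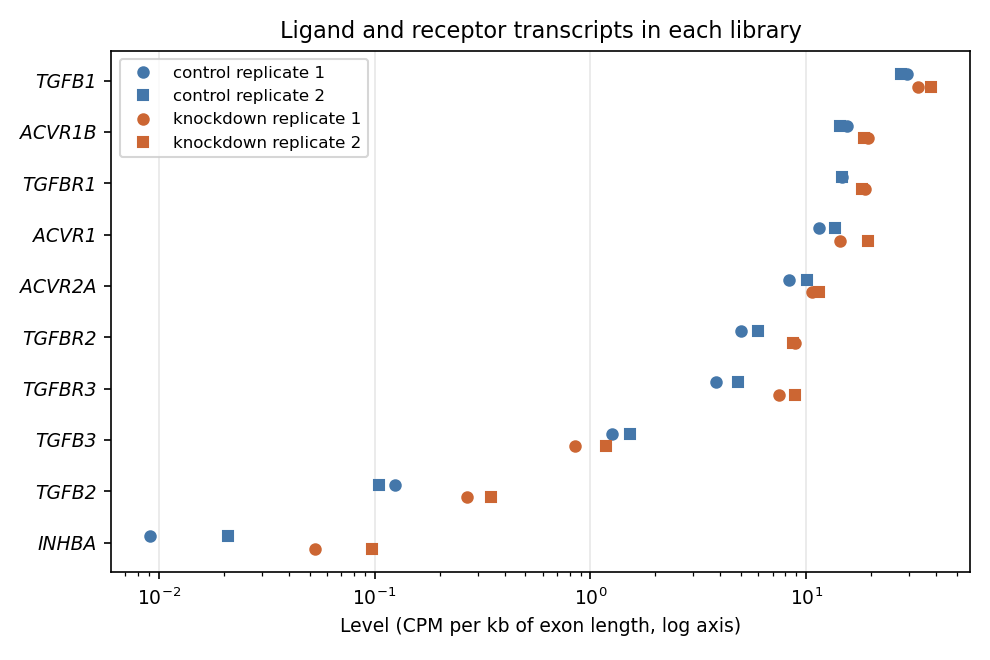
Level of each member in each of the 4 libraries, in CPM per kb of exon length on a log axis (x), with members ordered by their control mean (y). Blue points are controls and orange points knockdown libraries; TGFB1 is highest at 27.5 to 37.7 and INHBA lowest at 0.00915 to 0.0974 CPM per kb.

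TGFB1 encodes the main TGF-beta ligand of most epithelia and is made as a latent precursor. The gene (ENSG00000105329, chromosome 19, 41301587 to 41353911, minus strand, GRCh38) had 1249 and 1537 counts in control libraries against 1714 and 1817 after knockdown, or 94.7 and 88.9 CPM against 107 and 122 CPM. Both knockdown libraries were above both controls, but the log2 fold change of 0.32 (SE 0.115, 95% interval 0.07 to 0.57) missed the threshold (edgeR adjusted p = 0.0585). It was 0.39 without knockdown replicate 1, 0.22 without knockdown replicate 2, 0.33 without control replicate 1 and 0.26 without control replicate 2. TGFB1 was past the threshold with counts corrected for levelling off of abundant genes (0.37, edgeR adjusted p = 0.0436). It was not called by DESeq2 (0.29, adjusted p = 0.124), nor without the filter on low counts (0.29, edgeR adjusted p = 0.0957) or with plain library totals (0.30, edgeR adjusted p = 0.0759). TGFB1 shares 6.64% of its exon bases with HNRNPUL1 on the other strand, and no source used here tells whether counting used strand. Of the summed per-kb level of the 3 TGF-beta ligand genes, TGFB1 made up 95.5% and 94.4% in the controls against 96.7% and 96.1% in the knockdown.

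TGFB2 encodes an isoform that binds TGFBR2 weakly unless the coreceptor TGFBR3 presents it. The gene (ENSG00000092969, chromosome 1, 218345336 to 218444619, plus strand) was near the lower end of what was measured, with 10 and 11 counts in control libraries against 26 and 31 after knockdown, or 0.758 and 0.636 CPM against 1.62 and 2.08 CPM. The groups did not overlap, and TGFB2 was 2.65-fold higher after knockdown (edgeR adjusted p = 0.026, log2 fold change 1.41, SE 0.415). The call was kept without knockdown replicate 1 (edgeR adjusted p = 0.0149) and lost without knockdown replicate 2, control replicate 1 or control replicate 2 (edgeR adjusted p = 0.0928, 0.175 and 0.238) and with DESeq2 (adjusted p = 0.21). Of its exon bases, 22.7% are shared with TGFB2-OT1, a noncoding gene that lies wholly within its exons and had 2, 5, 4 and 11 counts in control replicates 1 and 2 and knockdown replicates 1 and 2. Reads from the shared part cannot be told apart, so the TGFB2 counts are uncertain.

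TGFB3 encodes the third isoform. The gene (ENSG00000119699, chromosome 14, 75958099 to 75982991, minus strand) had 82 and 130 counts in control libraries against 67 and 86 after knockdown, or 6.21 and 7.52 CPM against 4.18 and 5.78 CPM. The groups did not overlap, yet the log2 fold change of -0.47 had an interval from -1.05 to 0.12 and was not called (SE 0.269, edgeR adjusted p = 0.225). The ratio of TGFB1 to TGFB3, both per kb, was 23.1 and 17.9 in the controls against 38.8 and 32.1 in the knockdown.

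INHBA encodes the subunit whose homodimer is activin A. The gene (ENSG00000122641, chromosome 7, 41667168 to 41705834, minus strand) had 1 and 3 counts in control libraries against 7 and 12 after knockdown, which is 0.0758 and 0.174 CPM against 0.437 and 0.807 CPM. Both knockdown libraries were above both controls, and both controls were at or under 3 counts, the floor used here. The summed counts, 4 against 19, gave a ratio of 4.69 (exact conditional 95% interval 1.56 to 18.9, counting error only). INHBA was removed by the filter on low counts. Without that filter its log2 fold change was 2.15 (SE 0.809, edgeR adjusted p = 0.0473). With 1 library left out, INHBA passed the filter in 3 of the 4 fits, all of which kept knockdown replicate 2, its highest library. INHBA thus entered these fits through the group where it was high, and the filter favoured a rise. Its log2 fold change was then 2.53 without knockdown replicate 1 (edgeR adjusted p = 0.0267), and it was not called without control replicate 1 (1.75, edgeR adjusted p = 0.349) or control replicate 2 (2.88, edgeR adjusted p = 0.24). DESeq2 gave no adjusted p for it.

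TGFBR1 is the type I receptor of TGF-beta. The gene (ENSG00000106799, chromosome 9, 99104038 to 99154192, plus strand) had 1313 and 1735 counts in control libraries against 2047 and 1839 after knockdown. Scaled to CPM, the controls were close to each other, at 99.5 and 100.4, and the knockdown libraries were at 128 and 124. TGFBR1 was 1.26-fold higher (log2 fold change 0.33, SE 0.107, edgeR adjusted p = 0.0387). ACVR1B, the type I receptor of activins, had 86.9 and 80.9 CPM in the controls and 109.6 and 104 CPM after knockdown (ENSG00000135503, chromosome 12, 51951699 to 51997078, plus strand; 1146, 1399, 1757 and 1554 counts). It was 1.28-fold higher (log2 fold change 0.35, SE 0.110, edgeR adjusted p = 0.0328). Neither gene's libraries overlapped between groups, and both changes were small. TGFBR1 and ACVR1B were called without knockdown replicate 2 (edgeR adjusted p = 0.0398 and 0.019). They were not called without knockdown replicate 1 (0.0807 and 0.0674, edgeR adjusted p), control replicate 1 (0.237 and 0.161) or control replicate 2 (0.182 and 0.241), nor by DESeq2 (adjusted p = 0.0788 and 0.0722), nor without the filter on low counts (edgeR adjusted p = 0.0781 and 0.0547).

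ACVR1 is a type I receptor that binds activins and BMPs and signals through SMAD1 and SMAD5. The gene (ENSG00000115170, chromosome 2, 157736444 to 157875862, minus strand) had 601 and 939 counts in control libraries against 912 and 1146 after knockdown, or 45.6 and 54.3 CPM against 56.9 and 77.1 CPM. The lower knockdown library was close to the higher control, and ACVR1 was not called (log2 fold change 0.42, SE 0.155, 95% interval 0.08 to 0.76, edgeR adjusted p = 0.0648). Its value rested on knockdown replicate 2: the log2 fold change was 0.60 without knockdown replicate 1 (edgeR adjusted p = 0.000234) and 0.18 without knockdown replicate 2 (edgeR adjusted p = 0.405). Without the filter on low counts ACVR1 was called (0.39, edgeR adjusted p = 0.0252).

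TGFBR2 is the type II receptor that binds TGF-beta first. The gene (ENSG00000163513, chromosome 3, 30606502 to 30694142, plus strand) had 309 and 486 counts in control libraries against 671 and 610 after knockdown, or 23.4 and 28.1 CPM against 41.9 and 41.0 CPM. The knockdown libraries lay close together and well above both controls. TGFBR2 was 1.60-fold higher (log2 fold change 0.68, SE 0.149, edgeR adjusted p = 0.00603), and DESeq2 called it as well (adjusted p = 0.00385). The log2 fold change was 0.52 without control replicate 1 and 0.81 without control replicate 2, where it was not called (edgeR adjusted p = 0.152 and 0.062). The level of TGFBR1 over that of TGFBR2, both per kb, was 2.93 and 2.46 in the controls against 2.10 and 2.08 in the knockdown.

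ACVR2A is a type II receptor of activins that BMPs also bind. The gene (ENSG00000121989, chromosome 2, 147844517 to 147930826, plus strand) had 709 and 1123 counts in control libraries against 1093 and 1105 after knockdown, or 53.7 and 65.0 CPM against 68.2 and 74.3 CPM. The groups did not overlap, but the gap between them was smaller than the spread of the controls, and ACVR2A was not called (log2 fold change 0.26, SE 0.128, 95% interval -0.02 to 0.54, edgeR adjusted p = 0.155). It shares 8.37% of its exon bases with other genes, mostly with ORC4 on the other strand.

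The coding sequences of TGFBR2 and ACVR2A are shown here at the A runs for which these genes are known in mismatch repair deficient cancers, since such runs lengthen or shorten when replication slips are not repaired. A search of the canonical coding sequence of each member (GENCODE release 44) for runs of 1 base found at least 8 in a row in 3 of the 10 genes, TGFBR2, ACVR2A and TGFB2, and in 6.3% of the 14280 protein-coding genes tested. TGFBR2 has 10 A in exon 3, and 0.336% of those genes have a run of 10 or more. ACVR2A has a run of 8 A in exon 3 and another in exon 10, and TGFB2 has 8 A in exon 5. The lines below give 30 bases of the plus strand of the reference genome (hg38) around each, with the run in capitals, at chr3:30650370-30650399, chr2:147899461-147899490, chr2:147926106-147926135 and chr1:218436018-218436047.
TGFBR2 exon 3: attatgaaggAAAAAAAAAAgcctggtgag
ACVR2A exon 3: tgattgtgtagAAAAAAAAgacagccctga
ACVR2A exon 10: ttgttgtgcatAAAAAAAAgaggcctgttt
TGFB2 exon 5: agtccactaggAAAAAAAAcagtgggaaga
These are reference sequences. Counts per gene do not show the length of a run in these cells, nor which share of the mRNA could make a full receptor, so a higher TGFBR2 count is a count of transcripts of either kind.

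TGFBR3, also called betaglycan, is a coreceptor without kinase activity that presents TGF-beta isoforms to TGFBR2 and whose shed ectodomain binds ligand in solution. It had the smallest adjusted p of the 10 genes. The gene (ENSG00000069702, chromosome 1, 91680343 to 91906335, minus strand) had 431 and 717 counts in control libraries against 1027 and 1135 after knockdown, or 32.7 and 41.5 CPM against 64.1 and 76.3 CPM. Both knockdown libraries were well above both controls. TGFBR3 was 1.89-fold higher (log2 fold change 0.92, SE 0.148, 95% interval 0.60 to 1.24, edgeR adjusted p = 0.00107), and DESeq2 called it (adjusted p = 1.25e-05). It was called without control replicate 2 or either knockdown replicate, and not without control replicate 1 (0.72, edgeR adjusted p = 0.0601). TGFBR3 over TGFBR2, both per kb, was 0.765 and 0.809 in the controls against 0.839 and 1.02 in the knockdown.

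TGFBR3 and TGFBR2, which rose most of the 6 receptor and coreceptor genes among the members, were compared at their promoters. RefSeq windows (GRCh38.p14) from 250 bases before to 50 bases after the start were found for all 10 members. These starts need not be the outermost of the deposited gene models: the TGFBR3 window lies inside the gene's span and the TGFBR2 window before its first base. The window of TGFBR3, chr1:91886102-91886401 on the minus strand, was 71.7% G and C, and that of TGFBR2, chr3:30606106-30606405 on the plus strand, 42.3%, against a median of 58.3% over 27305 promoters. Capitals mark GGGCGG, the core of the binding sequence of SP1, on either strand.
TGFBR3 promoter: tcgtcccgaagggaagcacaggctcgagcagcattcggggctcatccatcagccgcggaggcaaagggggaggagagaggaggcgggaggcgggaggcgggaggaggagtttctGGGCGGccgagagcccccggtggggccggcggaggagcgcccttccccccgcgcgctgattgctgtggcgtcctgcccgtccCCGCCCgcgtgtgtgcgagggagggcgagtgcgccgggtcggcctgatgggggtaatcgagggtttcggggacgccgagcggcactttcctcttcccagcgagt
TGFBR2 promoter: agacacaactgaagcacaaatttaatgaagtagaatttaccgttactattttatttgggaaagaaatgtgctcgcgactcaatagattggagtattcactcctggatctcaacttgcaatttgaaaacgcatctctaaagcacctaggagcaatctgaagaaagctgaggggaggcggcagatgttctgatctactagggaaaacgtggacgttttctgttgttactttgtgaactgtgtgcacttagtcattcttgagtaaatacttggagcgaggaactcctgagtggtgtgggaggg
GGGCGG was found 2 times in the TGFBR3 window and not in that of TGFBR2. Over all members it was present in 4 of 10, among them 2 of the 5 called genes, against 44.6% of all promoters. TGANTCA, the motif of AP-1, and GTCTAGAC, the palindrome bound by SMAD3 and SMAD4, were in none of the 10 windows, against 7.76% and 0.201% of all promoters, and TATAAA was in 2 of 10 (TGFB2 and INHBA) against 12%. CAGACA, a SMAD-type element, was in 3 of 10 (TGFB2, INHBA and ACVR1), among them 1 of the 5 called genes, against 16.8% of all promoters. Both strands were searched. A match is a string of letters and not a measured site, and the start used in these cells was not measured.

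Added up per kb, the 4 ligand genes gave 30.6 and 29.1 CPM per kb in the controls against 34.2 and 39.4 in the knockdown, and the 6 receptor and coreceptor genes gave 58.5 and 63.5 against 79.3 and 85.0. Of the 6, 4 were called higher, and of the 3 ligand genes tested, 1, beside 12.5% of all genes tested. Occupancy, the mean count over 2 times the canonical transcript length, was used as a measure of levelling off in abundant genes. It assumes that counts level off at 2 times this length, and 132 genes had a count over 0.99 of it. Occupancy was 28.4% for TGFB1, between 5.73% and 16.2% for the receptor genes and at most 1.33% for the other ligand genes.

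TGFB2 had the largest called change of the members. Among 3635 called protein-coding genes averaging 5 CPM or more, those whose log2 CPM, centred over the 4 libraries, lay nearest to that of TGFB2 were CXXC4, ZNF792 and RFESD, at root mean square distances of 0.0936, 0.0942 and 0.116 on the log2 scale. With 4 libraries in 2 groups, any gene with a like rise is near.

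The other ligand genes of the family moved in both directions. Of 29 listed, 17 were tested, 4 were higher and 3 lower, with a median log2 fold change of 0.11. Over all genes tested, 12.5% were called higher and 13.1% lower. BMP5, a bone morphogenetic protein gene, had 1.29 and 3.76 CPM in the controls and 11.9 and 12.6 CPM after knockdown (log2 fold change 2.23, edgeR adjusted p = 0.00111). GDF11, which encodes a ligand that signals through SMAD2 and SMAD3, had 35.5 and 43.7 CPM against 77.4 and 106 CPM (1.21, edgeR adjusted p = 0.000338). INHBC and INHBE, which encode the activin C and E subunits and lie beside each other on chromosome 12, went opposite ways. INHBC rose from 1.74 and 1.56 to 7.86 and 5.04 CPM (1.97, edgeR adjusted p = 0.00126). INHBE fell from 5.00 and 14.1 to 1.31 and 2.69 CPM (log2 fold change -2.27, edgeR adjusted p = 0.004). BMP6 also fell (-1.16, edgeR adjusted p = 0.0132). With 1 library left out, BMP5 ranged from 1.66 to 3.23 and INHBE from -2.88 to -1.34. INHBC lost its call without either control (edgeR adjusted p = 0.0524 and 0.0713). Without control replicate 2, BMP6 (-0.71) and INHBE lost theirs as well (edgeR adjusted p = 0.251 and 0.154).

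Of 14 other receptor and coreceptor genes 11 were tested, with a median of -0.02. Of these, 3 were higher and 1 lower, beside 12.5% and 13.1% of all genes tested. BMPR2, the type II receptor of BMPs, was 1.86-fold higher, with 68.2 and 77.7 CPM in the controls and 129.9 and 142 CPM after knockdown (log2 difference 0.90, SE 0.117, edgeR adjusted p = 0.000301), and was called with any 1 library left out. ACVR2B, the second activin type II receptor, had 97.3 and 97.8 CPM against 178 and 122 CPM (0.62, edgeR adjusted p = 0.0119), and its value was 0.30 without knockdown replicate 1 (edgeR adjusted p = 0.0659) and 0.86 without knockdown replicate 2. BAMBI, a pseudoreceptor without a kinase that inhibits signalling, had 5.61 and 9.08 CPM against 11.9 and 22.4 CPM (1.21, edgeR adjusted p = 0.0137). RGMA, a BMP coreceptor gene, fell by 1.62 on the log2 scale (adjusted p by edgeR, 0.000948). Without control replicate 1 or 2 neither ACVR2B (edgeR adjusted p = 0.161 and 0.158) nor BAMBI (0.245 and 0.0895) was called, and BAMBI ranged from 0.68 to 1.60 with 1 library left out. RGMA was not called without control replicate 2 (0.0621). BMPR1A, a type I receptor of BMPs, showed -0.02 as log2 fold change (edgeR adjusted p = 0.935), and TDGF1, the nodal coreceptor, had 1 or 2 counts in each library.

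Genes that store or release latent TGF-beta were called in both directions, 6 higher and 3 lower of 14 tested, with a median log2 fold change of 0.49. FBN2, 1 of the 6, had 5 and 10 counts in control libraries against 30 and 17 after knockdown. FBN2 thus passed the filter on low counts only through the knockdown libraries, and the filter favoured a rise. The shares over all genes tested were 12.5% higher and 13.1% lower. THBS1, whose product thrombospondin activates latent TGF-beta, rose by 1.58, and LTBP3 and LTBP2, which encode latent TGF-beta binding proteins, rose by 0.88 and 1.17 in log2 units (edgeR adjusted p = 7.35e-05, 0.00036 and 0.00229). FURIN, the protease that cleaves the TGF-beta precursor, fell by 0.60, from 121 and 127 to 76.4 and 87.2 CPM, and ITGB1, an integrin subunit gene, fell by 0.55 (edgeR adjusted p = 0.00275 and 0.00822). Of the 5, LTBP2 lost its call without either control (edgeR adjusted p = 0.0931 and 0.0526), ITGB1 lost it without control replicate 1 (0.0835) and FURIN without control replicate 2 (0.0653). Of 12 genes for extracellular inhibitors, 6 were tested, 1 was higher and 1 lower, again beside 12.5% and 13.1% of all genes tested. CHRD, which encodes the BMP antagonist chordin, showed 0.62 as log2 fold change (edgeR adjusted p = 0.0273) and was not called without knockdown replicate 2 (0.26, edgeR adjusted p = 0.239), control replicate 1 (0.295) or control replicate 2 (0.184), nor with plain library totals (0.0633). NBL1, another BMP antagonist gene, fell by 0.61 (edgeR adjusted p = 0.0057) and was not called without control replicate 1 (0.109). FST, the activin antagonist follistatin, had 32 and 56 counts in control libraries against 57 and 100 after knockdown (0.84, edgeR adjusted p = 0.0929).

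**Figure D3:**
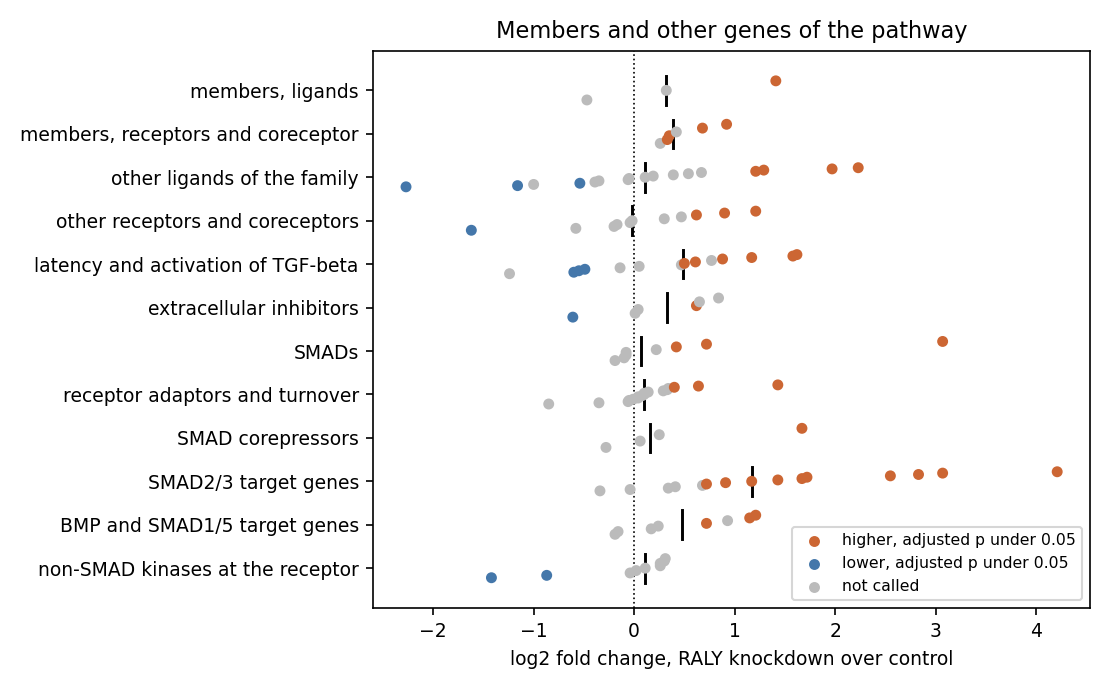
Log2 fold change of knockdown over control (x axis) of each tested gene, in rows by role in the pathway (y axis). Each point is 1 gene, orange and blue mark genes called higher or lower, grey marks genes not called, and black bars are medians; the member receptors and coreceptor share a row, and marker lists are not drawn. A gene on more than 1 list is drawn in each of its rows. The median is 1.17 for SMAD2/3 targets and between -0.02 and 0.49 for the other rows drawn.

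Downstream of the receptors, 3 of 8 SMAD genes were higher and none lower, with a median of 0.07. They were SMAD7, SMAD6 and SMAD3, the first pair inhibitory, with log2 fold changes of 3.07, 0.72 and 0.42 (edgeR adjusted p = 4.6e-06, 0.0227 and 0.0212). Of 17 genes for receptor adaptors and turnover, 3 were higher and none lower. For each list here, the shares over all genes tested were 12.5% higher and 13.1% lower. ZFYVE9, the SMAD anchor for receptor recruitment, rose by 0.64, the deubiquitinase gene USP15 by 0.40 and PMEPA1, an inhibitor of SMAD phosphorylation, by 1.43 in log2 units (edgeR adjusted p = 0.00244, 0.0172 and 0.0194). Of 4 SMAD corepressor genes 1, SKIL, was higher (1.67, edgeR adjusted p = 7.83e-06). Of 15 SMAD2/3 target genes, 10 were higher and none lower, with a median of 1.17, the largest of the lists. SMAD7, SKIL and CCN2 had the smallest p among them, and the rise of such targets in these data was known when the list was drawn up. TGFBI, 1 of the 10 SMAD2/3 targets called, had 1 count in each control library against 23 and 19 after knockdown. TGFBI thus passed the filter on low counts only through the knockdown libraries, and the filter favoured a rise. Of 8 tested targets of BMP and SMAD1/5 signalling, 3 were higher and none lower, with a median of 0.48. The lists share genes, so their counts are not separate. SMAD6, SMAD9 and BAMBI of these targets, and SMAD7, SKIL, PMEPA1, LTBP2 and COL1A1 of the SMAD2/3 targets, are also counted on other lists. ID2, a dominant-negative helix-loop-helix factor gene, had 11.1 and 12.2 CPM in the controls and 22.3 and 29.4 CPM after knockdown (1.15, edgeR adjusted p = 0.00167). Without control replicate 1 or 2, SMAD6, SMAD3, ZFYVE9, USP15, PMEPA1 and ID2 were not called (edgeR adjusted p between 0.0598 and 0.279), while SMAD7, SKIL and CCN2 were called with any 1 library left out. PMEPA1 ranged from 0.75 to 2.24 and was not called by DESeq2 (adjusted p = 0.225) or with counts corrected for levelling off (edgeR adjusted p = 0.0537).

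Of 9 genes for signalling beside the SMADs, none was higher and 2 were lower, against 12.5% and 13.1% of all genes tested. TAB1, the activator of the kinase TAK1, had 67.8 and 65.9 CPM in the controls and 40.4 and 32.5 CPM after knockdown (log2 fold change -0.87, edgeR adjusted p = 0.000909). PARD6A, a polarity protein gene whose product is phosphorylated by TGFBR2, had 12.2 and 12.6 CPM against 4.62 and 4.64 CPM (-1.42, edgeR adjusted p = 0.00108), and was not called without control replicate 2 (edgeR adjusted p = 0.0507). MAP3K7, which encodes TAK1 itself, was not called.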

How the data were processed

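Gene expression was measured in 4 libraries, 2 per group, grouped by their titles. The deposited values are whole-number read counts per gene, 1 table per library, with exon coordinates and lengths per the file headers. The submitters' processing notes list the build GRCh38 and, as tools, Subread with featureCounts, SAMtools and HISAT2 2.0.4, with no settings recorded; no source used here tells of strand use or removal of duplicate reads. Of 58884 gene IDs, 58472 were named through GENCODE release 44.

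Counts were filtered with filterByExpr, scaled with TMM factors and fitted with edgeR 4.0.16 (R 4.3.3; robust quasi-likelihood F test, term for the group, p-values adjusted by Benjamini-Hochberg over 19686 genes). CPM use TMM-scaled totals; 3 counts, the floor for undetected genes, equal 0.174 to 0.227 CPM. The fit was tested on simulated data. Alternatives were DESeq2 1.42.0 (size factors, Wald test), plain totals, other filters, a replicate block and each library left out. In a further alternative, counts were corrected for levelling off at an assumed ceiling (-2L ln(1 - n/2L), n the count and L the canonical length). Other genes were named by rule: per list, the called genes of lowest p, up to 3 in the more frequent direction and 2 in the other. FST, BMPR1A, TDGF1, MAP3K7, FBN2, TGFBI and the marker genes EPCAM, KRT8, VIL1, CDX1, DCN, LUM and PDGFRA were named after their values were seen. Members and lists were chosen with earlier results of these data known.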

Additional observations from a re-analysis of the deposited data

How the results depend on the processing

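The members called higher numbered 5 with TMM, with DESeq2 size factors, with plain totals and under both other filters (without a filter they were TGFBR3, TGFB2, TGFBR2, ACVR1 and INHBA), 6 with counts corrected for levelling off and 2 with the DESeq2 Wald test, and 0 to 6 with 1 library left out; the cause was not tested. No member was called lower under any of these settings, and no tested member changed direction. Under the filter of at least 1 CPM in 2 libraries, TGFB2 passed only through the knockdown libraries, the group where it was high. Over all genes, 5048 were called, and between 984 and 6259 with 1 library left out. With the replicate number as a block, 7 members were called higher, TGFB1 and ACVR1 in addition (edgeR adjusted p = 0.0285 and 0.00525), and 7054 genes in all. No label says that equal numbers mark a shared culture or day, and the source names that differ by number (HCT-116 and HCT-117) go against the single cell line entry; the replicate differences of the 2 groups had a correlation of 0.266 across 13917 genes, which are not independent. Leaving out a control leaves 1 library that is assumed to vary like the knockdown pair. Counts under about 30, as for TGFB2 and INHBA, limit those values.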
